A study of Caenorhabditis elegans with 2 samples.

Results

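The regions described here were the peaks of REC-8::GFP chromatin that lay inside exons, away from gene starts, in the nematode Caenorhabditis elegans. They were taken from the relaxed list of peaks and background that the authors called on the reads of both replicates together. A peak was included when its summit lay on chromosome I, II, III or IV, in an exon of a protein-coding gene, and more than 500 bp from every protein-coding transcript start and every tRNA, snoRNA, snRNA, rRNA or miRNA gene. This rule found 3115 exon peaks among 12854 peaks on these chromosomes and 18953 peaks in the whole list. It used no signal, GC content or replicate value.

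The samples formed 1 group of 2 biological replicates, so no comparison between conditions was possible. Each replicate was a population of whole hermaphrodites of strain YL563, collected as young adults 48 hours after release from starved, synchronized L1 larvae. Both carried REC-8 with GFP and FLAG at its C terminus, from a stable transgene, and an antibody against GFP was used on sonicated chromatin. A second label names the antibody as rec-8. Whole animals were used, so a peak cannot be assigned to a tissue. The submitters' notes list a control file among the inputs of each peak call; control reads were not analysed here. The files give no read counts, so the depth of the libraries is unknown.

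REC-8 is a meiotic kleisin of cohesin, the ring-shaped complex that holds sister chromatids together and organises chromosomes into loops along an axis. In worms it acts mainly in the germ line, where it takes part in sister chromatid cohesion and its stepwise release at the meiotic divisions. In other organisms cohesin is loaded at some sites and found at others, such as the 3′ ends of converging genes in budding and fission yeast. Exons differ from the sequence around them in base composition, since coding sequence is richer in G and C than worm introns, intergenic DNA and 3′ untranslated regions (UTRs).

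The sequences below show strong peaks whose window lies wholly in coding sequence on chromosomes II, III and IV, and the collagen exons that were a prominent host group. Stronger exon peaks outside these limits are not among them. Each is 120 bases around a summit on WBcel235 (the ce11 assembly), given 5′ to 3′ on the coding strand of the gene, as read from the RefSeq copy of the genome. In the first 6 sequences, those of highest signal among such windows, capitals mark the 11 bases centred on the summit. They are best-18 (III:10214569-10214688), mnk-1 (II:10547327-10547446), rfc-3 (IV:13096767-13096886), glt-6 (IV:7506145-7506264), col-110 (IV:4608812-4608931) and col-133 (IV:14098465-14098584). The next 3 sequences are from the collagen genes of highest signal not already among those 6, which were added after the values were seen. In these, capitals mark GGNCCN, a glycine codon followed by a proline codon when in frame, a step of the collagen repeat. They are col-91 (III:8262835-8262954), col-114 (IV:7245763-7245882) and col-130 (IV:12427719-12427838).
best-18: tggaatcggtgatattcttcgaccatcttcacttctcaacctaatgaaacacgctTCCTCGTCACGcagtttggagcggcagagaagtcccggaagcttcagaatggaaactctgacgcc
mnk-1: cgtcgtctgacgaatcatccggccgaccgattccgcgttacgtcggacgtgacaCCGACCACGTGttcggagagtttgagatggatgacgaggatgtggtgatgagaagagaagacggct
rfc-3: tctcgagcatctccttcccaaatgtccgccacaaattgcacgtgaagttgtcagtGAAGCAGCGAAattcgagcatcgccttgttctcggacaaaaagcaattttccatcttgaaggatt
glt-6: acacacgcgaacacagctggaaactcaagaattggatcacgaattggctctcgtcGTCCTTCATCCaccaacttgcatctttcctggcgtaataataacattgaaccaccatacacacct
col-110: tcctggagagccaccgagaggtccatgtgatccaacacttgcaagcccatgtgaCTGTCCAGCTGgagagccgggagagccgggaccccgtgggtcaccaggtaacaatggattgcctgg
col-133: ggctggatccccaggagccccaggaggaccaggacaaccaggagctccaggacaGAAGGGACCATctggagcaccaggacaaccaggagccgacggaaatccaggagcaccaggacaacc
col-91: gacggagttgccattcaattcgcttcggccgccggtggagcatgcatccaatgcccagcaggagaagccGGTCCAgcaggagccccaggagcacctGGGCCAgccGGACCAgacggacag
col-114: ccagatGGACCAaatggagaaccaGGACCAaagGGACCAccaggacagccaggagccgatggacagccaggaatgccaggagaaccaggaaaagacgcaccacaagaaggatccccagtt
col-130: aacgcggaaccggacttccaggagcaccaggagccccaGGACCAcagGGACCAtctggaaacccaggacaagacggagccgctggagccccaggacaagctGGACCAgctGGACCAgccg

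GC content of these 120 bases was 45.8% in rfc-3 and in glt-6, 50% in best-18 and 56.7% in mnk-1, and 56.7 to 65.8% in the 5 collagen genes. The marked hexamer came 3 times in col-91 and in col-114 and 4 times in col-130. All 3 collagen peaks were matched in both replicates, with signals of 32.3 in replicate 1 and 33.1 in replicate 2 for col-91, and 40.6 and 23.1 for col-114. Its first 5 bases, GGNCC, read the same on both strands. At least 3 copies of GGNCC were in the 200 bp around 96 exon peaks (3.08%), against 0.768% of windows at eligible exon bases, and 62 of those 96 peaks were in collagen genes. Collagen exons are rich in it throughout: 51.4% of their eligible windows held at least 3 copies, against 78.5% of the windows at collagen peaks. Outside the collagen genes, windows with at least 3 copies held 34 exon peaks, or 569.0 per Mb. All windows of at least 50% GC outside collagen genes had 709.8 per Mb.

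Exon peaks were only slightly more frequent than the exon bases open to them. They made up 24.2% of the peaks on I to IV (95% interval 23.5 to 24.98), against 21.1% of the bases there, a ratio of 1.15. This came to 239.3 exon peaks per Mb, against 148.2 per Mb in introns and 151.5 per Mb in intergenic DNA by the same distance rule. The classes differ in repeats: 200 bp windows at least 50% repeat-masked made up 6.09% of exon, 50.2% of intron and 36.7% of intergenic bases. The part of repeats in these densities was not tested. Intron and intergenic peaks away from starts numbered 2553 and 2513. The ratio for exon peaks was 1.19 in the list of replicate 1 alone and 1.10 in that of replicate 2. Among the 640 exon peaks matched in both replicates, set against all peaks so matched, it was 1.02. Density was 222.2 per Mb on IV, 227.5 on II, 240.9 on I and 268.0 on III. Over I to IV together, the central 33.3% of the chromosomes held 39.1% of the exon peaks (interval 37.4 to 40.8), against 41.0% of the eligible bases. The direction was not the same on each. The centre was denser than the arms on I (259.7 against 228.2 per Mb). It was sparser on II (196.5 against 247.7), III (254.0 against 277.7) and IV (203.0 against 236.8). The distance limit did not mark a step: 194 exon peaks lay 501 to 600 bp from a start or RNA gene (233.3 per Mb, median signal 30.5), and 216 summits in exons lay just outside the rule at 401 to 500 bp (250.01 per Mb, median signal 31.0).

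Along the host gene, exon peaks were concentrated at the 3′ end. Of the 3077 exon peaks in exons of a single gene, 820 (26.6%, interval 25.1 to 28.2) lay in the last 10% of the gene's length, against 18.5% of the eligible exon bases. Every earlier stretch of 10% held a smaller share of the peaks than of the bases, except the one just before it (14.7% of peaks and 13.8% of bases). The ratio of peaks to bases for that last stretch was 1.34 in replicate 1 and 1.42 in replicate 2, against 1.44 in the pooled list. Last exons held 36.95% of the peaks, against 25.3% of the bases, and internal exons 61.9% against 73.5%. The 3′ UTR, the part of the messenger RNA after the stop codon, held 596 peaks (19.4%), against 12.04% of the bases. Coding sequence held 2441 peaks (79.3%), against 86.6% of the bases. Density fell with distance from the 3′ end, with 392.7 peaks per Mb in the last 100 bp, 334.4 at 100 to 250 bp, 270.1 at 250 to 500 bp and about 200 beyond 1000 bp (199.7 at 1000 to 2000 bp and 204.3 farther away).

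**Figure D1:**
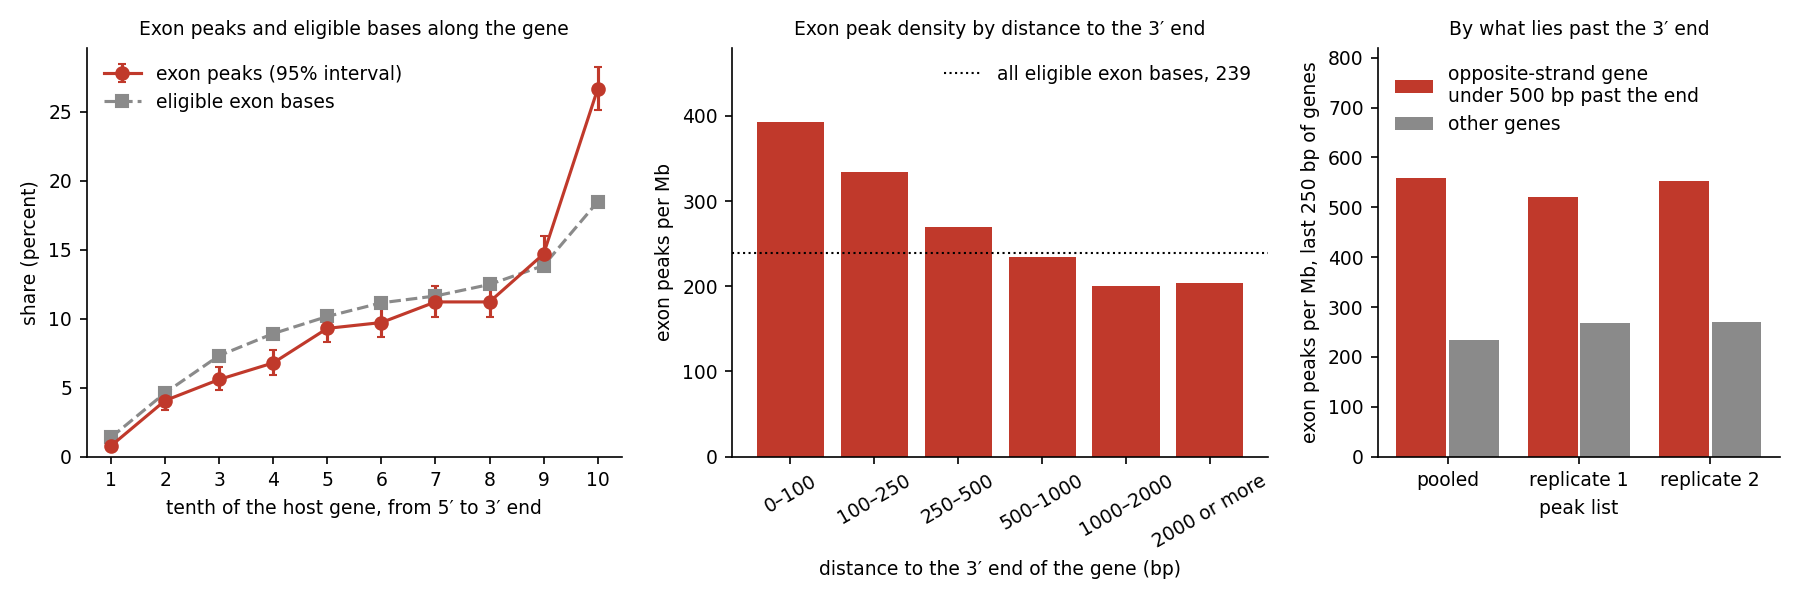
Left, the percent of exon peaks (red, 95% binomial interval) and of eligible exon bases (grey) in each 10% of the host gene's length, where the last 10% holds 26.6% of peaks and 18.5% of bases. Middle, exon peaks per Mb by distance to the 3′ end of the gene, which run down to 199.7 at 1000 to 2000 bp. The dotted line is the mean over all eligible exon bases. Right, peaks per Mb in the last 250 bp of genes, where red is higher in all 3 lists. Red marks genes with an opposite-strand gene under 500 bp past the end or overlapping it, and grey marks other genes.

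At 3′ ends, exon peaks were densest in genes with an opposite-strand gene close past their end or overlapping it. Of the 667 exon peaks in the last 250 bp of a gene, 396 (59.4%, interval 55.5 to 63.1) were in genes with a protein-coding gene on the opposite strand under 500 bp past their 3′ end or overlapping it, against 38.1% of the bases there. A gene that lies within a longer opposite-strand gene also counts here, so the 3′ ends need not face each other in every case. These ends, called tail-to-tail here, had 557.9 exon peaks per Mb, against 234.6 per Mb at the other 3′ ends. Exons over 1000 bp from the 3′ end had 199.7 to 204.3 per Mb. In replicate 1 alone the densities were 519.9 and 267.5 per Mb, and in replicate 2 alone 553.7 and 270.1 per Mb. The tail-to-tail peaks also had a higher median signal, 35.4 against 30.4, and 29.8% of them (interval 25.3 to 34.6) were matched in both replicates, against 18.5% (14.02 to 23.6) of the other 3′-end peaks. Their mean GC content was 35.4% (SE 0.338, n = 396), against 34.5% (SE 0.425, n = 271). Density was also high between genes whose 3′ ends do face. Intergenic gaps under 500 bp between facing 3′ ends had 547.2 peaks per Mb, against 148.0 per Mb in the rest of the intergenic DNA away from starts. This split was chosen after the values were seen, and no test was made of it. Genes with a same-strand neighbour close downstream are thinly covered here, because the distance rule leaves out the bases near that neighbour's start.

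GC content at exon summits was higher than the mean over eligible exon bases. In 200 bp around the summit it averaged 41.7% (SE 0.158, n = 3115), against 39.4% over windows at every eligible exon base and 37.2% in flanks 1000 bp to each side. Of the exon peaks, 2051 (65.8%) were richer in GC than their own flanks, close to the 65.4% of windows at all eligible exon bases, so this count is not particular to the peaks. Among intron and intergenic peaks it was 48.96% and 51.97%. Peaks in introns averaged 36.6% against 33.5% for intron bases, and peaks in intergenic DNA 36.8% against 34.2%, so summits exceeded their bases in each class. In coding sequence the exon peaks averaged 43.9% (SE 0.165), against 40.5% for the bases. In 3′ UTRs they averaged 33.1% (SE 0.216), against 32.5%.

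Exon peaks were densest in windows of at least 50% GC. Windows of at least 50% GC held 626 exon peaks, 20.1% of them, in 6.37% of the eligible bases, a density of 754.9 per Mb. The lowest density, 169.0 per Mb, was at 40 to 45% GC. Windows under 30% GC held 269.0 per Mb, close to the 266.0 per Mb at 45 to 50%. Introns and intergenic DNA had much the same densities as exons at 40 to 45% GC (166.0 and 166.1 per Mb) and were likewise densest at 50% GC or more (655.8 and 599.1 per Mb). They were below exons at low GC, where introns had 105.1 and intergenic DNA 119.5 peaks per Mb under 30%. In exons those AT-rich windows are largely 3′ UTR: under 30% GC the 3′ UTR had 330.7 exon peaks per Mb and coding sequence 156.4. Neither part was itself raised there. The 3′ UTR had 346.7 to 618.7 per Mb in the other GC ranges, and coding sequence 148.8 to 176.1 per Mb between 30 and 45% GC. Under 45% GC, the last 250 bp of genes had more exon peaks than the rest of the gene at like GC, 282.1 to 392.1 per Mb over 4 GC ranges against 151.7 to 175.1 per Mb. At 45 to 50% GC the last 250 bp again had more, 397.5 against 258.5 per Mb. Only at 50% GC or more did the last 250 bp have fewer, 543.7 against 765.7 per Mb, with 22 peaks behind the first value. The share of peaks in windows of 50% GC or more was 18.1% in replicate 1 and 14.7% in replicate 2. GC content can itself change how well DNA is sheared, amplified and sequenced, and its part in these densities was not tested.

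**Figure D2:**
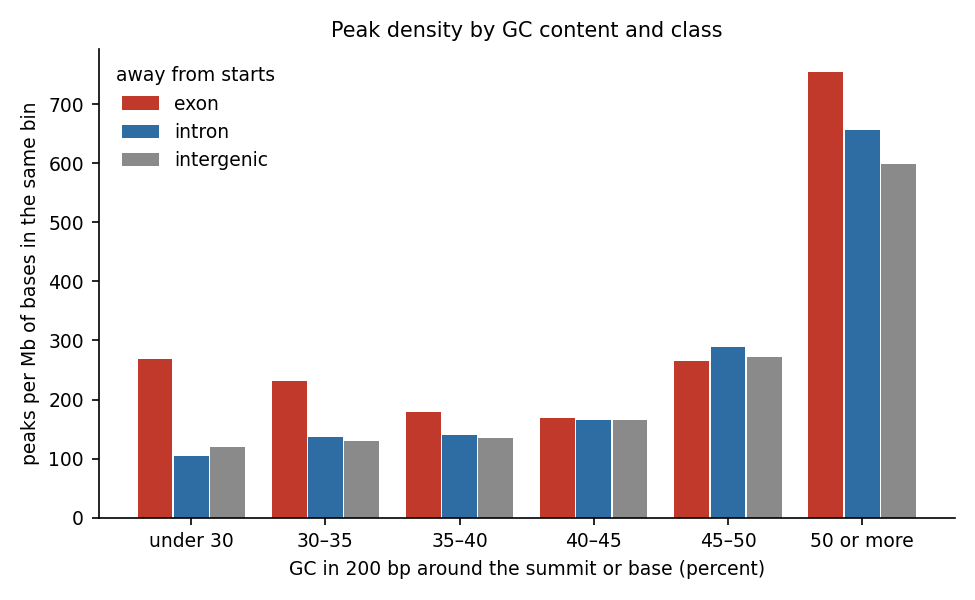
Peaks per Mb of bases with the same GC content (percent, in 200 bp windows) for exon, intron and intergenic summits away from starts. All 3 classes are highest at 50% GC or more (754.9, 655.8 and 599.1 per Mb). Under 30% GC exons (269.0 per Mb) lie above introns (105.1) and intergenic DNA (119.5).

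Exon length, repeats and motifs were also compared. Exon peaks lay in longer exon blocks than the eligible bases did, with a median of 410 bp against 364 bp. Density went from 181.3 per Mb in blocks under 150 bp to 284.4 per Mb in blocks of 600 to 1200 bp. It was 237.2 per Mb in blocks longer than that. At like GC, blocks of 300 bp or more were denser than shorter ones except at 40 to 45% GC (157.4 against 188.5 per Mb). They had 186.0 against 170.7 per Mb at 35 to 40% GC. At 45 to 50% they had 290.3 against 201.3, and at 50% or more 778.8 against 633.1. Of the bases at 50% GC or more, they held 693414, against 135835 in shorter blocks. The part of GC content in these densities by block length was not tested. Repeat-masked bases made up 18.3% of the windows at exon peaks, against 18.8% at eligible bases. Windows in which at least 50% of the 31-base words recur elsewhere in the genome were found at 17 exon peaks (0.546%), against 3.62% of the eligible bases. The hexamer CCGCCC (a GC box), searched on both strands, was in 4.40% of exon peak windows and 2.78% of eligible windows, and CACCAC was in 11.5% and 9.33%. The hexamer GAGAGA was in 11.6% and 11.02%, GAAGAA in 27.6% and 31.5%, CATATG (an E-box) in 4.14% and 4.38%, and GGTTCGA, the core of the tRNA B box, in 1.64% and 1.54%. Motif shares at matched GC content were not computed.

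The signal of exon peaks was typical of the list. The signal is the value the authors' peak caller gave each peak. It had a median of 31.0 (quartiles 26.8 and 37.4, highest 132.6), against 31.0 in the whole list, 29.7 in introns and 30.3 in intergenic DNA. Of the exon peaks, 1558 (50.02%) were in the upper 50% of the pooled list by signal, a share that the whole list has by construction (50%). The share was 42.8% for intron peaks and 45.96% for intergenic peaks, a difference of 7.24 percentage points (adjusted p = 2.22e-07) and of 4.06 points (adjusted p = 0.00531) by two-sided Fisher's exact tests. Neither the distance of 250 bp nor coding sequence alone kept the second difference past 0.05 (2.31 points, adjusted p = 0.0802, and 3.06 points, adjusted p = 0.0661, Fisher's exact tests). Peaks are not independent samples, and these p-values cover the counting of peaks only. The median deposited q-value of exon peaks was 0.127 on the −log10 scale, and only 26 reached the list's highest value, 2.37. These values were not compared with other classes or the whole list, so weak q-values cannot be called particular to exon peaks. Higher values are stronger on this scale, so by the authors' own call the typical exon peak hardly stood out from background. The places, densities and hosts given here describe entries of a list of peaks and background, not established REC-8 sites.

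About 1 in 5 exon peaks of the pooled list was matched in both replicates, and the share was larger the higher the pooled signal. A summit was matched when a replicate's own list had a summit within 100 bp. By this measure 1792 exon peaks (57.5%) were matched in replicate 1, 1445 (46.4%) in replicate 2, 640 (20.5%, interval 19.1 to 22.01) in both and 518 (16.6%) in neither. In the whole list 23% of peaks were matched in both, so exon peaks were a little below that background. Of the eligible exon bases, 0.909% lay within 100 bp of a summit of both replicates. The pooled list was called on the reads of these same replicates, so this share of bases is not an expectation for the match. For the same reason, a rise of the match with pooled signal is partly built in. Over 4 equal parts of the list, each 25% of it and ordered from the lowest to the highest signal, the share of exon peaks matched in both was 1.59%, 9.61%, 20.8% and 53.2%. Between matched pairs the signals of replicate 1 and replicate 2 ranked only loosely alike (Spearman's rho 0.27 over 640 exon peaks of the same 2 libraries, a description with no test).

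The match was a little more frequent than in introns, 20.5% against 17.6%, a difference of 2.92 points (adjusted p = 0.00732, two-sided Fisher's exact test). It did not differ detectably from intergenic peaks, with 20.5% against 20.3% (adjusted p = 0.842, the same exact test). Both calls differed between the replicates. Matching in replicate 1 alone gave differences of 3.51 points from introns (adjusted p = 0.00841) and 3.73 points from intergenic peaks (adjusted p = 0.00722, exact tests). Matching in replicate 2 alone gave 1.23 points (adjusted p = 0.362) and -1.80 points (adjusted p = 0.239, exact tests). Within the upper 50% by signal the difference from introns was -0.623 points (adjusted p = 0.742, exact test).

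**Figure D3:**
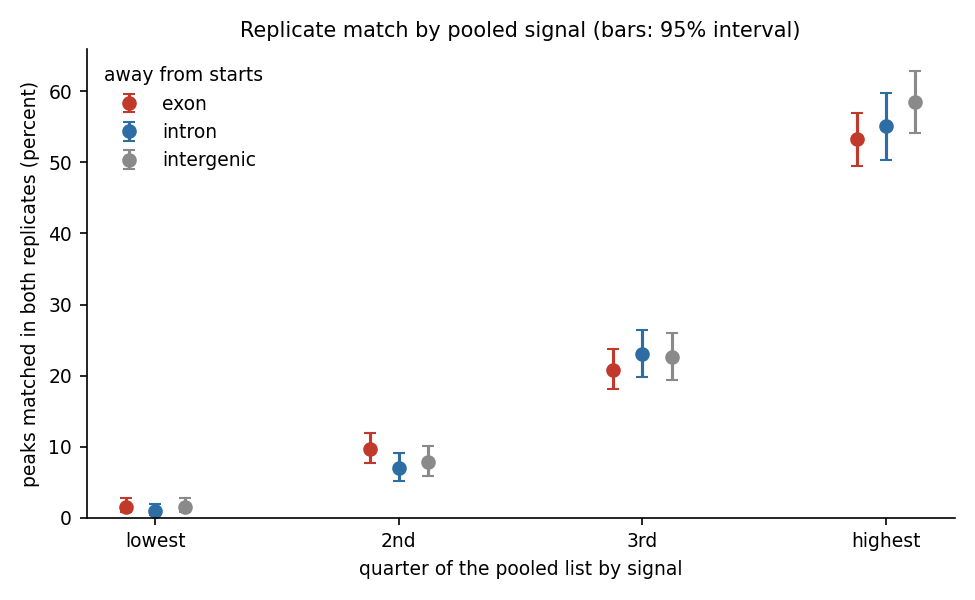
Percent of exon, intron and intergenic peaks away from starts with a summit within 100 bp in both replicate lists, in each 25% of the pooled list by signal (bars, 95% binomial intervals). Exon peaks go from 1.59% in the lowest to 53.2% in the highest 25%, and the intervals of the 3 classes overlap in each.

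The authors' reproducible set, chosen from this list by the irreproducible discovery rate, held 10 exon peaks. That is 0.321% of them (interval 0.154 to 0.590), against 0.901% of intron peaks, 1.35% of intergenic peaks and 3.2% of the whole list. All 10 had their summit in the last 500 bp of the gene, 8 in the last 250 bp and 7 in a 3′ UTR, against 35.3%, 22.4% and 20% of all exon peaks. GC content at these 10 was 32 to 41%, and in 9 it was below that of the flanks. Collagen genes held none of them. The next peaks by signal, outside the set, were those of best-18, a bestrophin-family channel gene (80.2), and mnk-1, a MAP-kinase-interacting kinase gene (79.95).

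The highest exon signal was at tlp-1, which encodes a zinc-finger transcription factor (IV:13701461-13701890), with 132.6 in the pooled list, 75.5 in replicate 1 and 56.9 in replicate 2. The second lay where the facing 3′ ends of ran-1, the gene of the Ran GTPase of nuclear transport, and rib-2, a heparan sulfate glycosyltransferase gene, overlap (III:10746423-10746852). Its signal was 127.1 pooled, 53.2 in replicate 1 and 75.1 in replicate 2. At rsa-1, a regulatory subunit gene of protein phosphatase 2A at centrosomes (I:10187258-10187687), the signal was 52.3 in replicate 1, 50.9 in replicate 2 and 98.4 pooled. Signal scales are not shared between lists, and by rank this peak stood at 397 of 21160 in replicate 1 and 439 of 21503 in replicate 2. At suro-1 (I:7872144-7872573) the signal was 67.2 in replicate 1, 21.7 in replicate 2 and 111.6 pooled. This peak ranked 216 in replicate 1 and 4272 in replicate 2. F25B5.3 (III:5953119-5953548), with 70.3 in replicate 1, 19.4 in replicate 2 and 82.5 pooled, ranked 191 and 6242.

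The peaks of tir-1 and rpl-3 formed a pair. The gene tir-1 encodes the TIR-domain protein related to mammalian SARM1, and rpl-3 a protein of the large ribosomal subunit. Both summits lay in 3′ UTRs about 100 bp from the gene's end (109 and 102 bp), and they were 214 bp apart, since the genes face each other. At tir-1 (III:3869484-3869913) the signal was 91.1 pooled, 51.5 in replicate 1 and 29.0 in replicate 2. At rpl-3 (III:3869270-3869699) it was 84.0 pooled and 55.1 in replicate 2, with no summit of replicate 1 within 100 bp. The other members of the set were srt-47, a chemoreceptor gene (IV:15049351-15049780, 92.6 pooled, 63.4 in replicate 1 and 36.6 in replicate 2), F25B5.5 (III:5943748-5944177, 86.5, 62.5 and 26.7) and F16A11.1 (I:9393591-9394020, 86.3, 54.97 and 32.7). Close pairs of summits were common beyond this case: 567 exon peaks (18.2%) had another pooled summit within 300 bp, against 14.7% of intron and 16.9% of intergenic peaks. The median distance in these pairs was 221 bp and the lowest 199 bp. Exon peaks had a median width of 430 bp, so such peaks can overlap, as those of tir-1 and rpl-3 do. Each summit counts separately in the densities given here. Whether a close pair is 1 stretch called more than once was not tested.

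**Figure D4:**
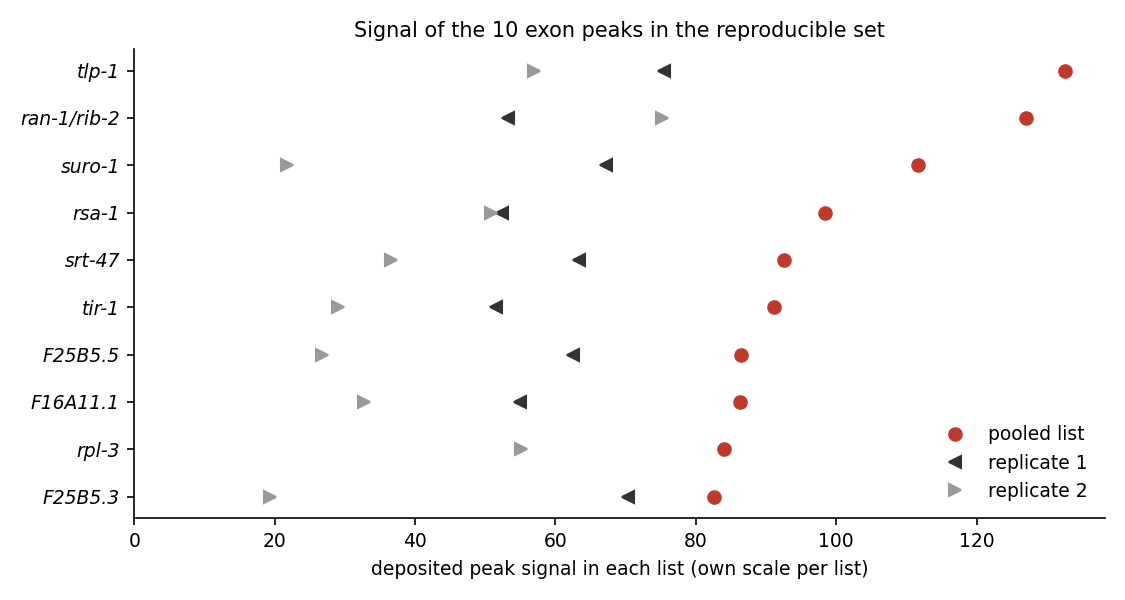
Deposited signal of the 10 exon peaks in the reproducible set, one host gene per row in order of pooled signal, in the pooled list (red circles) and in each replicate's own list (triangles), whose scales are not shared. Pooled values span 82.5 (F25B5.3) to 132.6 (tlp-1), and rpl-3 has no replicate 1 point because no summit lay within 100 bp.

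Below the reproducible set, several strong exon peaks were also matched in both replicates. They included rsp-5, a splicing factor gene of the SR family (75.7 pooled, 39.97 in replicate 1 and 38.01 in replicate 2), tsn-1, the gene of a Tudor staphylococcal nuclease (75.6, 36.3 and 36.3), rfc-3, a clamp loader subunit gene (74.0, 39.3 and 41.6), and lin-29, a heterochronic zinc-finger gene (75.6, 43.7 and 38.5). Their ranks were 639 (lin-29) to 1177 (tsn-1) in replicate 1 and 685 (rfc-3) to 934 (tsn-1) in replicate 2. The glutamate transporter gene glt-6 (72.8 pooled) was matched in replicate 1 alone (57.6). The remaining peaks of the 20 highest were in T28F4.4 (77.9), anmt-1, an amine N-methyltransferase gene (75.9), and D2030.3 (74.2). The strongest chaperone gene peaks, at dnj-20 (69.6 pooled, 39.3 in replicate 1 and 21.8 in replicate 2), hsp-60 (64.9 and 36.2, with no match in replicate 2) and hsp-1 (61.4, 40.5 and 20.04), also lay in 3′ UTRs. Of the 20 highest peaks, 18 were matched in both replicates, 16 lay in the last 500 bp of the gene and 1 had a GC content of at least 50%, against 20.5%, 35.3% and 20.1% of all exon peaks.

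Exon peaks were spread over 2402 of the 11082 protein-coding genes with eligible exon sequence, 21.7%. Most hosts, 1868, had 1 peak, and 534 had at least 2. The share of hosts went with the amount of exon: 3.15% of genes with under 250 bp of eligible exon were hosts and 58.1% of those with 4000 bp or more, while peaks per Mb stayed between 204.0 and 290.7. The genes with most peaks had long exons in all. The spectraplakin gene vab-10, which links cytoskeleton and membrane, had 13 peaks in 22061 bp of eligible exon (signals 24.2 to 50.99), of which 1 was matched in both replicates. The genes let-805 (myotactin, which anchors muscle to epidermis) and dys-1 (dystrophin, at the muscle membrane) had 8 peaks each, and the ubiquitin ligase gene eel-1, the perlecan gene unc-52 and the Brat-related gene ncl-1 had 7 each. Of these, ncl-1 was the densest, with 1.80 peaks per kb of eligible exon and 3 of 7 matched in both. The genes mdt-15 (a Mediator subunit), set-16 (a histone H3 lysine 4 methyltransferase), vit-6 (a yolk protein) and jac-1 (a p120 catenin) had 6 each. In set-16, 4 of the 6 were matched in both replicates, and in mdt-15 and jac-1 none was.

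The cuticle collagens, which form the worm's exoskeleton, were the gene list with the highest share of hosts among lists of more than 1 gene. Of 112 collagen genes with eligible exon, 69 (61.6%, interval 51.9 to 70.6) had an exon peak, against 21.7% of all eligible genes and 16.6% of genes with a like amount of eligible exon (500 to 1000 bp; the collagens' median was 650.5 bp). They held 79 exon peaks, or 1010.3 per Mb, which is 4.20 times the 240.6 per Mb over all genes. The collagen peaks had a median signal of 34.6 against 30.9 for the other exon peaks, and 31 of 79 (39.2%, interval 28.4 to 50.9) were matched in both replicates, against 20.1% (18.6 to 21.5). Coding sequence held 77 of the 79. The strongest were col-110 (70.9 pooled, 43.6 in replicate 1 and 27.8 in replicate 2), col-133 (67.6, 48.1 and 15.7) and col-91 (67.6, 32.3 and 33.1).

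GC content moved with this group. It averaged 58.2% at the collagen peaks and 52.1% over the collagens' eligible bases, against 41.3% and 39.3% for the other exons. In windows of at least 50% GC, collagen exons had 1456.0 peaks per Mb and other exons 709.8 per Mb. The collagens share a repeated coding sequence, and 68.4% of their peak windows held no 31-base word found elsewhere in the genome, against 94.7% of all exon peaks. The part of GC content and of shared sequence in the collagen result was not tested. Without collagen genes, a choice made after the values were seen, the ratio of exon peaks to bases was 1.13, against 1.15 with them.

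The lists of cohesin, chromatin and germline RNA genes had more exon peaks per Mb than all genes in the pooled list. The germline RNA list was below the mean in replicate 1, and the cohesin list was near it in replicate 2 (1.04 times). Splicing factor and respiratory chain genes had higher pooled ratios (1.63 and 2.38), and a link to germline function was not tested. In the list of cohesin, synapsis and crossover genes, 26 of 56 (46.4%, interval 32.99 to 60.3) were hosts, against 21.7% of all eligible genes and 28.6% of genes with 1000 to 2000 bp of eligible exon (the list's median was 1327 bp). They had 324.5 peaks per Mb, 1.35 times the value over all genes. The strongest were him-19 (48.6 pooled, 17.2 in replicate 1 and 28.2 in replicate 2), mus-81, a crossover nuclease gene (48.1 pooled and 26.8 in replicate 2), and brc-2, the worm BRCA2 gene (46.9, 21.5 and 23.7). The gene rec-8 itself had 1 weak exon peak (IV:13350625-13351054, 29.1 pooled and 22.9 in replicate 1), with no match in replicate 2. Since the animals carried tagged REC-8, reads from the transgene and from the gene cannot be told apart there. Chromatin and dosage compensation genes had 23 hosts of 45 (51.1%, interval 35.8 to 66.3, ratio 1.42), led by lin-35, the retinoblastoma gene (68.9, 29.0 and 38.9). With a median of 2236 bp of eligible exon, their host share stands beside 43.3% of genes with 2000 to 4000 bp, a value within its interval. Splicing factor genes had 20 of 49 (40.8%, ratio 1.63), with a median of 1164 bp. Germline RNA regulators had 22 hosts of 49 (44.9%, ratio 1.51), with a median of 1545 bp, led by wago-4, an Argonaute gene (71.2, 41.1 and 45.8), gls-1 (62.9) and puf-11 (59.1), all 3 in the 3′ UTR.

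These moderate ratios varied with the list of peaks used. With each peak given to 1 gene, the germline RNA list had 1.52 times the mean density in the pooled list but 0.812 times in replicate 1 and 1.24 times in replicate 2. Cohesin and synapsis genes had 1.31, 1.41 and 1.04, chromatin genes 1.39, 1.21 and 1.29, and splicing factors 1.64, 1.66 and 1.45. The respiratory chain and ATP synthase genes, 10 hosts of 32, had 2.40, 2.13 and 1.47, with 12 peaks or fewer behind each value. For the collagens the 3 values were 4.22, 3.80 and 3.30.

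Chemoreceptor genes and F-box, MATH and BTB genes, both large families, had few exon peaks for their length, unlike the cuticle collagens. Chemoreceptor genes, most of which encode receptors of sensory neurons, had 34 hosts of 422 (8.06%) and 117.0 peaks per Mb, 0.486 times the mean. F-box, MATH and BTB genes, substrate adaptors of ubiquitin ligases, had 15 hosts of 301 (4.98%) and 65.5 per Mb, 0.272 times the mean. Both families' medians lay between 500 and 1000 bp of eligible exon, where 16.6% of genes were hosts. In replicate 1 the ratios were 0.640 and 0.519, and in replicate 2 0.451 and 0.454, so both families were below the mean in every list. Few genes of some classes could be examined, because the distance rule removes short genes: 33 of 70 cytosolic ribosomal protein genes had eligible exon (3 hosts), 6 of 47 core histone genes (0 hosts) and 2 of 41 major sperm protein genes (0 hosts). The remaining lists had ratios between 0.767 (muscle sarcomere, 11 hosts of 25, and synapse and axon, 27 of 77) and 1.23 (heat shock proteins and chaperones, 11 of 43). Between these were tRNA synthetases (9 of 28, 0.927), basement membrane (3 of 9, 0.931), cytoskeletal motors (18 of 43, 1.07), RNA polymerase II and Mediator (12 of 40, 1.09), translation factors (7 of 34, 1.20) and intestinal enzymes (6 of 27, 1.20). Several of these turned on the list used. Intestinal enzymes had 0.307 times the mean in replicate 1 and 1.27 in replicate 2, translation factors 1.36 and 1.92, tRNA synthetases 1.49 and 0.859, muscle genes 1.04 and 0.618, cytoskeletal motors 1.10 and 0.694, chaperones 0.881 and 1.14, basement membrane genes 1.02 and 0.863, and ribosomal protein genes 2.91 and 1.51. The single vitellogenin gene with eligible exon, vit-6, had 6 peaks in 4638 bp.

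**Figure D5:**
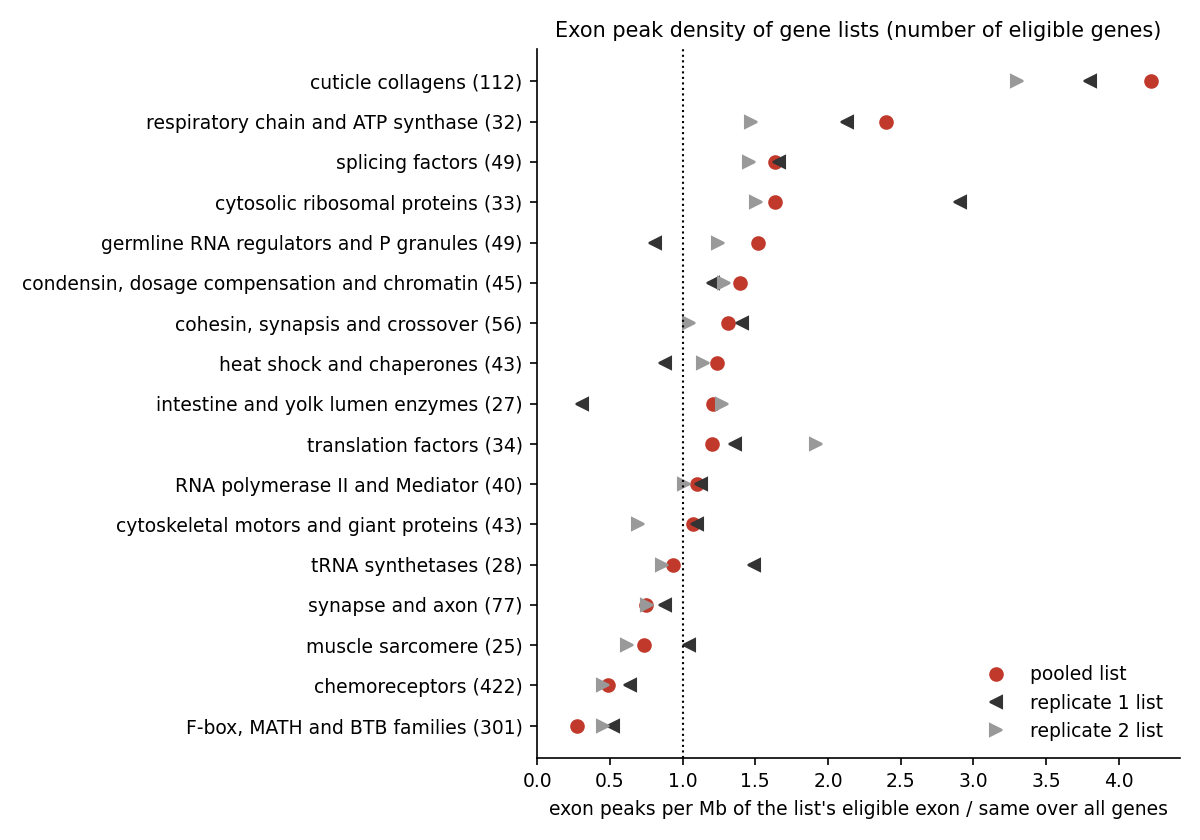
Exon peaks per Mb of eligible exon in each gene list of 10 or more genes, divided by the same over all genes (dotted line, 1), for the pooled list and each replicate's own list, each peak given to 1 gene. Cuticle collagens lie at 4.22, 3.80 and 3.30, and chemoreceptors and F-box, MATH and BTB genes lie below 1 in all 3 lists.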

How the data were processed

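The authors deposited narrowPeak lists on ce11, and per the notes deposited with the samples each was called with a control file: 1 relaxed list per replicate (21160 and 21503 peaks), 1 for both replicates' reads together, and a reproducible set of 606 peaks chosen from it. The deposited signal column is the peak caller's value, on an unstated scale, and was used only within a list. Deposited q-values are −log10 values. Neither aligner, peak caller nor reproducibility threshold is given in the sources used here. Lists on ce10 were not used here.

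Summits were placed on WBcel235 with Ensembl release 115. Each base of I to IV was put in 1 class by the same rule as the summits, and all shares of bases are exhaustive counts. GC content was taken in 200 bp windows. Intervals are exact 95% Clopper-Pearson intervals and cover the counting of peaks only. The 4 Fisher's exact tests were adjusted together by Benjamini-Hochberg. Exon blocks are merged exons of a gene. The 21 gene lists, the motifs and the members were chosen with earlier results of these data known. Named genes were the hosts of the 20 highest signals, of the exon peaks in the reproducible set, the 10 genes with most peaks, the strongest hosts of each list, and rec-8. Scripts (Python 3.11.15, numpy 2.4.6, pandas 2.3.3, scipy 1.17.1, matplotlib 3.10.9) were tested on simulated data. Alternatives were distances of 250 and 1000 bp, coding sequence alone, the upper 50% by signal, each replicate alone, other match distances and windows.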

Additional observations from a re-analysis of the deposited data

How the results depend on the processing

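Of 54 alternative values, 29 kept their direction and their side of the threshold or moved by less than their error, 11 moved by more, 5 fell below the threshold, 2 passed it and 7 changed sign. The ratio of exon peaks to bases was 1.046 in coding sequence alone and 1.015 for peaks matched in both replicates (an alternative chosen after the data were seen), and 1.104 to 1.193 in single replicates. The excess of signal in the upper 50% over intergenic peaks was 2.307 points with a distance of 250 bp and 3.06 points in coding sequence alone. The excess of matched peaks over introns was 1.827 points in coding sequence (adjusted p = 0.135, exact test), 0.4572 points for summits within 50 bp (adjusted p = 0.610) and -0.6232 points in the upper 50% by signal, and 1.226 to 3.513 points with 1 replicate left out. Over intergenic peaks, where the main difference was 0.2513 points and not past the threshold, it was -0.9511 points with a distance of 250 bp, -0.841 in coding sequence, -3.335 in the upper 50% by signal, -0.9086 for summits within 50 bp and -0.2352 without collagen genes. It was 2.978 points for summits within 250 bp (adjusted p = 0.0212, exact test) and -1.801 to 3.728 points with 1 replicate left out. The GC excess over bases was 3.461 points in coding sequence, 2.866 in the upper 50% by signal, 3.413 for peaks matched in both replicates, 1.93 without collagen genes, and 1.486 to 2.146 in single replicates. The ratio for the 3′ 50% of the gene was 1.056 in coding sequence, 1.138 for peaks matched in both and 1.088 to 1.095 in single replicates. The causes were not tested. The share in the upper 50% could not be recomputed within the upper 50%. No paired analysis was possible because there is 1 group. With no read counts, what the depth limits cannot be stated.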
